A study of Homo sapiens with 8 samples.

Results

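The genes described here were the nuclear-encoded subunits of the mitochondrial respiratory chain and ATP synthase. They were taken from the array annotation by symbol: NDUFA, NDUFB, NDUFC, NDUFS or NDUFV followed by a number for complex I, SDHA to SDHD for complex II, the UQCR genes and CYC1 for complex III, the COX4I, COX5, COX6, COX7 and COX8 genes for complex IV, and the ATP5 genes for complex V, which is ATP synthase. Only transcript clusters (the probe sets of 1 transcribed locus on the array) with a single gene symbol were used, the brightest cluster stood for a gene, and pseudogenes were left out. This gave 75 of the 22465 genes that had a single-symbol cluster, with 31 in complex I, 3 in complex II, 8 in complex III, 15 in complex IV and 18 in complex V. A further 9 clusters carried several symbols, among them those of NDUFS8, NDUFB8, COX7C and UQCRH, and were left out with 4 pseudogenes and 2 antisense genes. SDHB and UQCRFS1 were not analysed here, nor were the 13 subunits encoded by mitochondrial DNA. NDUFA4 and NDUFA4L2 now carry the symbols COXFA4 and COXFA4L2, which these names do not cover, and were not members.

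The study asked how an extract of Rauwolfia vomitoria root bark (RWF extract) acts on cells of benign prostatic hyperplasia. BPH-1, an established line from human prostate epithelium, and WPMY-1, an established myofibroblast line from prostate stroma, each received vehicle or RWF extract at 250 μg/ml for 24 h, after which total RNA was hybridised to Affymetrix Human Transcriptome Arrays. There were 2 arrays in each of the 4 groups. All values are log2 expression as the authors deposited it, so that a difference of 0.38 is a 1.3-fold change, and a level cannot be compared between genes because each gene has its own probes. BPH-1 was grown in RPMI1640 and WPMY-1 in DMEM, so line and medium cannot be told apart, and each line stands for its tissue as a single line. Nothing in the labels ties the arrays of a group to separate cultures, so a p-value here weighs a difference against the scatter of these arrays alone, and that scatter may be technical.

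Complexes I, III and IV pass electrons from NADH to oxygen and pump protons out of the mitochondrial matrix, complex II feeds in electrons from succinate, and complex V lets the protons flow back and makes ATP. Each complex except complex II joins a few subunits made in the mitochondrion to many that are encoded in the nucleus and imported. Several nuclear subunits of complex IV have a second form that is made mainly in muscle, testis or other tissues.

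The defining markers separated the lines as labelled. In vehicle, all 11 epithelial markers had both WPMY-1 arrays below both BPH-1 arrays, 10 of them past the adjusted test (median difference -3.09), and 11 of 11 stromal markers were called higher (median 2.35). Under RWF extract 5 of 11 stromal markers fell in WPMY-1, where 1.1% of all genes were called lower. On the low side 8 had an unadjusted limma p under 0.05, against 9.84% of all genes. Both RWF arrays were below vehicle in 10, against 20.8% of all genes (median -0.40, lower than the median of any complex there). The summed stromal marker signal in WPMY-1 on a linear scale was 8339 to 8674 in vehicle and 6466 to 6729 in RWF extract. The summed epithelial signal was 7999 to 8247 in vehicle and 7183 to 7619 in RWF extract in BPH-1. The 11 epithelial markers nevertheless lay to both sides of 0 there, with 6 above and 5 below, a median of 0.010 and 0 called. Both RWF arrays lay above vehicle in 5 markers and below in 3, against 16.7% and 18.6% of all genes. The part of either change in marker signal in the results below was not tested. In RNA from whole cultures, a smaller share of cells with a marker and less marker RNA per cell cannot be told apart.

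RWF extract left most subunits slightly below vehicle in both lines, with differences that did not pass the test. In BPH-1, limma with Benjamini-Hochberg adjustment over all 67528 clusters called 0 of 75 members, against 0.0223% of all genes, and the lowest adjusted p was 0.653. In WPMY-1 it called 0 of 75, against 1.99% of all genes (0.89% higher and 1.1% lower), with a lowest adjusted p of 0.054 for UQCRC2. At an unadjusted p under 0.05, 0 members were higher in BPH-1, against 3.53% of all genes, and 2 were lower (2.67%, against 2.81%). In WPMY-1, 2 were higher (2.67%, against 11.9% of all genes) and 18 lower (24%, against 9.84%). The methods' t-test (a Student test for each gene) called 0 members after adjustment in either line and without it gave 6 lower in BPH-1 (8%, against 2.95% of all genes) and 7 lower in WPMY-1 (9.33%, against 5.26%). The median 95% interval of a member's difference reached 0.195 to either side, which limits what 2 arrays a group can resolve.

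The small differences had 1 prevailing sign. In BPH-1, 61 of 75 members lay below 0 (81.3%, against 51.7% of all genes), and in 44 members both RWF arrays were below both vehicle arrays (58.7%, against 18.6% of all genes), while 6 had both above (8%, against 16.7%). In WPMY-1, 49 lay below 0 (65.3%, against 38.1% of all genes) and 34 had both RWF arrays below (45.3%, against 20.8% of all genes), while 7 had both above (9.33%, against 37.7%). The sign count in WPMY-1 moved with the scaling, from 44 below 0 after quantile normalization to 64 after median centring, and stayed at 61 in BPH-1 under both. All genes moved with the scaling too. Of 22465 genes in WPMY-1, 13901 lay above 0 as deposited, 13309 after quantile normalization and 11005 after median centring. Members above 0 were 26, 31 and 11. The members were brighter than the average gene (median 7.49, against 5.74 over all genes), and brightness moved with the sign in WPMY-1. Among the 7472 genes at least as bright as the lower quartile of the members, a limit set after the values were seen, 57.4% lay below 0 in WPMY-1 and 51.2% in BPH-1. Of the 56 members within it, 67.9% lay below 0 in WPMY-1 and 82.1% in BPH-1. In WPMY-1 both RWF arrays were below vehicle in 46.4% of these members, against 36.8% of the 7472 genes. Both were above in 8.93%, against 24%. In BPH-1 the shares were 62.5% against 21.4% below and 7.14% against 21.3% above. The excess on the low side in WPMY-1 was thus smaller among the brighter genes. In both lines at once, 23 members had both RWF arrays below vehicle (30.7%, against 6.96% of all genes) and 0 had both above (8.25% of all genes). The brighter genes were not counted in this way.

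The medians of the complexes were not alike. In BPH-1 the median difference was -0.058 in complex I, -0.053 in complex II, -0.148 in complex III, -0.009 in complex IV and -0.103 in complex V, beside -0.003 over all genes. In WPMY-1 the medians were -0.030, -0.093, -0.167, 0.010 and -0.209, beside 0.052 over all genes. Among the 7472 brighter genes the median was -0.037 in WPMY-1 and -0.004 in BPH-1. In WPMY-1 complexes I and IV were thus not below the brighter genes, while complexes II, III and V were. The medians of the complexes were not limited to brighter members. In the values as deposited, complexes III and V thus had the lowest medians in both lines and complex IV the highest. Without WPMY-1 vehicle replicate 2, complex I (0.031) stood above complex IV (0.017) in WPMY-1. No test was run between complexes.

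**Figure D1:**
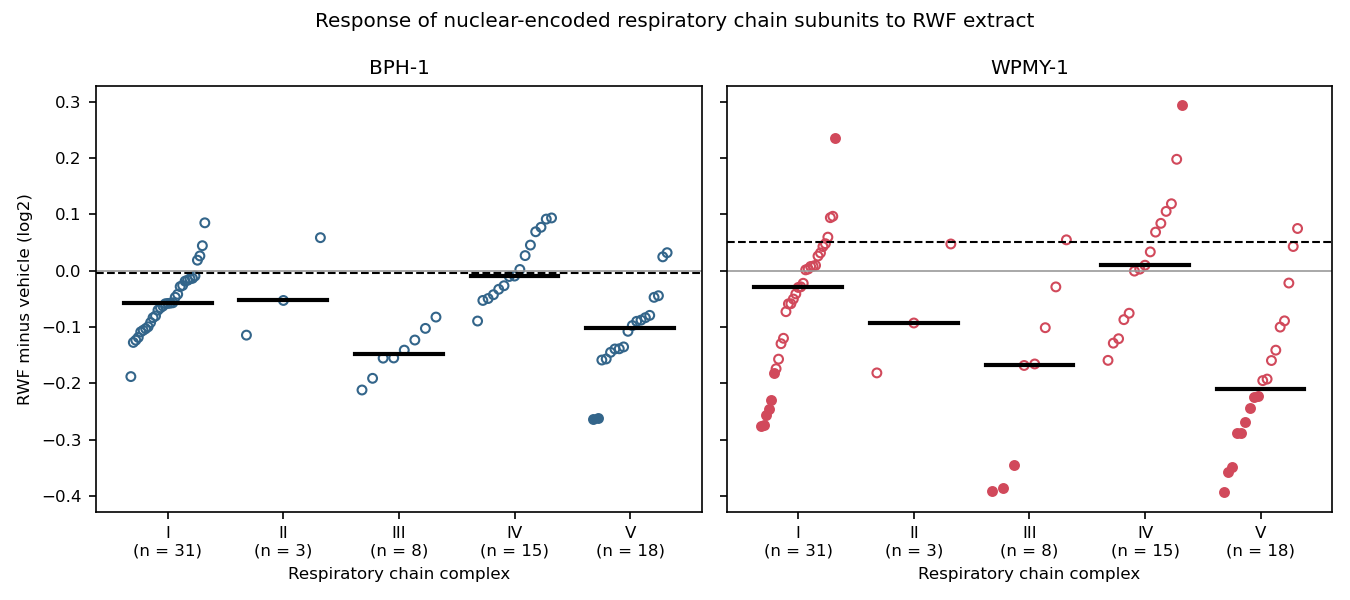
Difference between RWF extract and vehicle (log2, means of 2 arrays each) for each of the 75 subunits, by complex, in BPH-1 (left) and WPMY-1 (right). Filled points had an unadjusted limma p under 0.05, thick bars are the median of a complex, and the dashed line is the median of all genes. None of the points passed the adjusted test, and the bars of complexes III and V lie lowest in both lines.

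Complex I takes electrons from NADH in its N module, hands them to ubiquinone in the Q module, and pumps protons in its membrane arm. In BPH-1, 27 of its 31 members lay below 0, and 17 had both RWF arrays below vehicle, against 51.7% and 18.6% of all genes. The lowest was NDUFV2, an iron-sulphur subunit of the N module. It read 7.55 and 7.45 in vehicle and 7.28 and 7.33 in RWF extract, a difference of -0.19 (95% interval -0.38 to 0.007, limma adjusted p = 0.870). In WPMY-1 the same gene read 7.39 and 7.31 in vehicle and 7.02 and 7.17 in RWF extract, a difference of -0.26 (-0.45 to -0.061, adjusted p = 0.170). Both RWF arrays were below both vehicle arrays in each line. The highest complex I member in BPH-1 was NDUFC1, a small membrane arm subunit, at 6.24 and 6.17 in vehicle and 6.25 and 6.33 in RWF extract (0.085, -0.12 to 0.29).

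In WPMY-1 the members of complex I spread to both sides. NDUFA9, an accessory subunit where the arms of the complex meet, was lowest: 9.02 and 8.86 in vehicle against 8.69 and 8.64 in RWF extract, a difference of -0.28 (-0.47 to -0.083, adjusted p = 0.145). In BPH-1 its arrays overlapped, at 8.65 and 8.62 in vehicle and 8.58 and 8.65 in RWF extract. NDUFA2, an accessory subunit of the N module, was highest in WPMY-1, where 6.999 and 7.06 in vehicle stood against 7.32 and 7.22 in RWF extract (0.24, 0.029 to 0.44, adjusted p = 0.212). The N module thus held both directions, with 5 of its 10 members above 0 and 5 below in WPMY-1 and a median of -0.014. Members with an unadjusted p under 0.05 on the low side were 2 of the N module, 1 of the Q module and 3 of the other subunits. Over all genes this share was 9.84%.

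Complex II, succinate dehydrogenase, also works in the tricarboxylic acid cycle. Its flavoprotein SDHA read 8.04 and 8.14 in BPH-1 vehicle and 7.91 and 8.05 in RWF extract, and 8.31 and 8.46 in WPMY-1 vehicle and 8.14 and 8.27 in RWF extract. The arrays overlapped in BPH-1 (-0.11, -0.33 to 0.10) and did not in WPMY-1 (-0.18, -0.40 to 0.036, adjusted p = 0.334). SDHC, a membrane anchor, differed by 0.059 in BPH-1 and 0.048 in WPMY-1, with overlapping arrays in both.

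Complex III carries electrons from ubiquinol to cytochrome c. In BPH-1 all 8 of its members lay below 0 with both RWF arrays below both vehicle arrays, and the differences ran from -0.21 to -0.082. Over all genes both RWF arrays were below vehicle in 18.6% there. UQCR11, a small accessory subunit, was lowest there, at 6.83 and 6.92 in vehicle and 6.60 and 6.73 in RWF extract (-0.21, -0.46 to 0.033, adjusted p = 0.926). In WPMY-1 its arrays overlapped, and the difference was -0.029.

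In WPMY-1, 7 of the 8 complex III members lay below 0, against 38.1% of all genes, led by 3 subunits with values near -0.4. UQCRC2, a core protein of the matrix side, read 10.2 and 10.1 in vehicle and 9.77 and 9.77 in RWF extract, a difference of -0.39, or 1.31-fold lower (-0.57 to -0.21, adjusted p = 0.054). Its BPH-1 values were 10.2 and 10.2 in vehicle and 10.1 and 10.0 in RWF extract (-0.15, -0.33 to 0.024). UQCRC2 passed the test in WPMY-1 in 4 of 9 other ways of processing, with adjusted p from 0.020 to 0.150 over those other than the methods' t-test. UQCRB, which lies at a ubiquinone site, and CYC1, cytochrome c1 itself, were singled out after their values were seen. UQCRB read 5.16 and 5.04 in WPMY-1 vehicle and 4.60 and 4.83 in RWF extract (-0.39, adjusted p = 0.114). CYC1 read 8.77 and 8.98 in vehicle and 8.52 and 8.55 in RWF extract (-0.34, adjusted p = 0.119). Neither overlapped, and UQCRQ was the only member above 0, at 0.055 with overlapping arrays. UQCRHL is a near copy of UQCRH, so its difference of -0.16 in BPH-1 and -0.17 in WPMY-1 may hold signal of both genes.

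The members of complex IV, cytochrome c oxidase, lay to both sides of 0. In BPH-1, 7 of its 15 members lay above 0 and 8 below, and 4 had both RWF arrays above vehicle while 4 had both below. Of all genes, 16.7% had both above and 18.6% both below there. Its subunits COX4I1, COX6A1, COX7A2 and COX8A, the forms used by most tissues, differed in BPH-1 by 0.002, 0.092, -0.027 and -0.009. In WPMY-1 they differed by 0.069, 0.11, 0.12 and -0.13, and the lowest adjusted p among them was 0.535. COX6B1 and COX7B differed by -0.053 and -0.049 in BPH-1 and by -0.12 and -0.075 in WPMY-1.

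The lowest complex IV member in WPMY-1 was COX5A, a matrix-side subunit, at 8.42 and 8.56 in vehicle and 8.25 and 8.41 in RWF extract (-0.16, -0.36 to 0.044, adjusted p = 0.362). COX7A1, the form made in heart and skeletal muscle, was highest. It read 5.12 and 5.32 in WPMY-1 vehicle and 5.61 and 5.42 in RWF extract (0.29, 0.035 to 0.55, adjusted p = 0.215), and 5.21 and 5.40 in BPH-1 vehicle and 5.31 and 5.44 in RWF extract (0.069). The groups did not overlap in WPMY-1 and did in BPH-1. The other restricted forms were COX4I2, the form known from lung, at 0.20 in WPMY-1 (0.021 without vehicle replicate 1 and 0.37 without vehicle replicate 2), COX6A2, the muscle form, at 0.003, COX7B2 at 0.084 and COX8C, known from testis, at 0.010. COX7B2 and COX8C were dim, at 2.24 to 2.70 over the 8 arrays beside a median cluster mean of 4.57 and near the low end of the array's range. Without the 5 restricted forms the median of complex IV was -0.038 in WPMY-1, below the -0.030 of complex I, and -0.010 in BPH-1. COX7A2L, which takes part in joining complexes III and IV into supercomplexes, differed by 0.077 and 0.033.

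In complex V most members lay below 0 in both lines. In BPH-1, 16 of its 18 members lay below 0 and 14 had both RWF arrays below vehicle, against 51.7% and 18.6% of all genes. In WPMY-1 the counts were 16 and 13, against 38.1% and 20.8% of all genes. Complex V had the only 2 members with an unadjusted p under 0.05 in BPH-1, ATP5MC1 and ATP5F1D, and 9 of the 18 such members on the low side in WPMY-1. Of all genes, 2.81% in BPH-1 and 9.84% in WPMY-1 were lower at that limit.

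The F1 head, where ATP is made, is built of the 5 subunits ATP5F1A to ATP5F1E, described together after their values were seen. All 5 had both RWF arrays below both vehicle arrays in both lines, against 6.96% of all genes. ATP5F1B, the catalytic beta subunit, read 11.1 and 11.1 in WPMY-1 vehicle and 10.8 and 10.7 in RWF extract, a difference of -0.36 or 1.28-fold lower (-0.53 to -0.18, adjusted p = 0.064). Its BPH-1 values were 11.1 and 11.1 in vehicle and 10.97 and 10.9 in RWF extract (-0.14, -0.32 to 0.031). ATP5F1B passed the test in WPMY-1 in 4 of 9 other ways of processing, with adjusted p from 0.024 to 0.167 over those other than the methods' t-test. ATP5F1D, the delta subunit of the central stalk, was the lowest member of the whole chain in WPMY-1. It read 7.91 and 8.09 in vehicle and 7.71 and 7.51 in RWF extract there (-0.39, -0.64 to -0.15, adjusted p = 0.117), and 8.53 and 8.55 in BPH-1 vehicle and 8.18 and 8.38 in RWF extract (-0.26, -0.51 to -0.014, adjusted p = 0.821). In WPMY-1 the alpha subunit ATP5F1A differed by -0.27, the gamma subunit ATP5F1C by -0.29 and the epsilon subunit ATP5F1E by -0.24, with unadjusted p of 0.0080, 0.016 and 0.016. In BPH-1 the same genes differed by -0.14, -0.16 and -0.11. Over the head the median in BPH-1 was -0.145, and in WPMY-1 it was -0.288.

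The c ring, the rotor in the membrane, is built from 1 protein that 3 genes encode. All 3 genes had both RWF arrays below vehicle in both lines, against 6.96% of all genes, but not to a like extent. ATP5MC1 was the lowest member of the chain in BPH-1, at 7.76 and 7.71 in vehicle and 7.42 and 7.52 in RWF extract (-0.26, -0.46 to -0.065, adjusted p = 0.653), and differed by -0.16 in WPMY-1. ATP5MC2 read 6.94 and 7.05 in WPMY-1 vehicle and 6.72 and 6.57 in RWF extract (-0.35, adjusted p = 0.103), and differed by -0.090 in BPH-1. ATP5MC3 differed by -0.29 in WPMY-1 and -0.088 in BPH-1. The peripheral stalk, which keeps the head from turning with the rotor, was split. Its subunits ATP5PD and ATP5PF were the highest of the complex, at 0.075 and 0.043 in WPMY-1 and 0.025 and 0.032 in BPH-1, while 2 of the 4 lay below 0 in each line. ATP5IF1, the inhibitor that blocks the enzyme from splitting ATP, differed by -0.022 in WPMY-1 and -0.044 in BPH-1 with overlapping arrays.

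**Figure D2:**
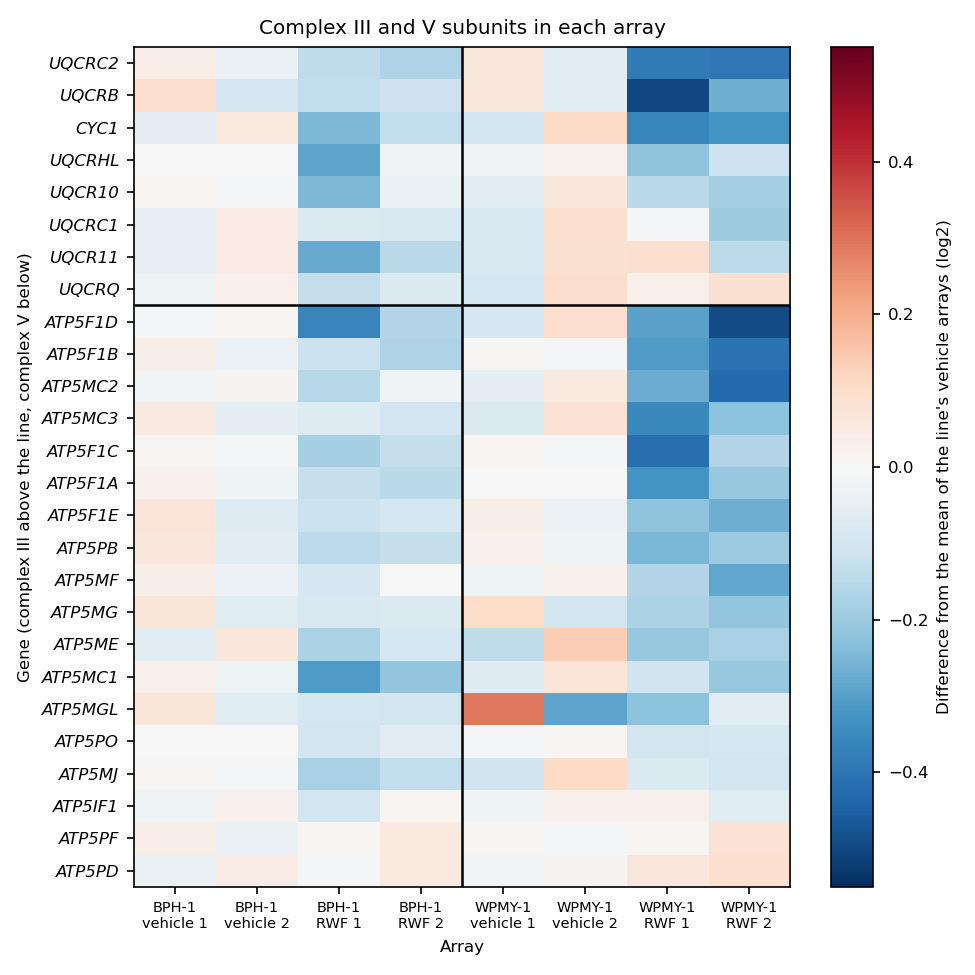
Each subunit of complex III (above the line) and complex V (below) in each of the 8 arrays, as the difference from the mean of the same line's 2 vehicle arrays (log2; blue lower, red higher). In WPMY-1 both RWF arrays are blue for UQCRC2, UQCRB, CYC1 and the 5 ATP5F1 genes. For these genes the BPH-1 RWF arrays are mostly paler, but ATP5F1D in BPH-1 RWF replicate 1 is darker than in WPMY-1 RWF replicate 1. ATP5PD and ATP5PF are at or above the vehicle mean in the RWF arrays except for ATP5PD in BPH-1 RWF replicate 1, which is barely below it.

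Factors that bind promoters of respiratory genes, among them NRF1 (nuclear respiratory factor 1), GABP and YY1, have known recognition motifs. RefSeq windows from 250 bases before to 50 after a transcription start (GRCh38.p14) were matched by symbol for 60 of the 75 members, 72 windows in all, and searched on both strands for the letters of each motif. The NRF1 core GCATGCGC lay in 19.4% of the member windows, against 3.05% of all 35116 windows. The GABP core CCGGAAG lay in 25% against 10.3%, and the YY1 core AANATGGC, where N is any base, in 33.3% against 6.58%. Of the 13 genes with the NRF1 letters, 7 lay below 0 in WPMY-1 and 4 had both RWF arrays below vehicle (NDUFA5, ATP5F1C, ATP5MC2 and ATP5ME), against 30 and 20 of the 47 matched genes without them. With the GABP letters, 7 of 17 genes had both RWF arrays below vehicle in WPMY-1, against 17 of 43 without them. With the YY1 letters the counts were 11 of 22 against 13 of 38. The NRF1 letters were found in 0 of the 5 matched complex III genes. A match describes these letters only and is not a measured binding site.

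The 250 bases before the start of 3 complex V genes that lay low in both lines are shown because they place the letters of the motifs, in capitals, close to the start. They were read 5′ to 3′ on the strand of the gene. The window of ATP5F1C, at chr10:7787927-7788176 on the plus strand, holds the NRF1 core on both strands in an overlapping pair whose first base lies 22 before the start. That of ATP5MC2, at chr12:53676084-53676333 on the minus strand and 1 of 3 starts of the gene, holds it 40 before the start. That of ATP5F1A, at chr18:46098297-46098546 on the minus strand and 1 of 2 starts, holds the GABP core, in its reverse complement, 48 before the start.
ATP5F1C: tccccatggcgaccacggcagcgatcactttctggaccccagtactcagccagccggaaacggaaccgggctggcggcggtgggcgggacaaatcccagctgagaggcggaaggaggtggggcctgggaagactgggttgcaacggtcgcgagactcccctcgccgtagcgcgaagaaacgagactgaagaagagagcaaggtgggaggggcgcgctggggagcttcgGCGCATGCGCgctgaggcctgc
ATP5MC2: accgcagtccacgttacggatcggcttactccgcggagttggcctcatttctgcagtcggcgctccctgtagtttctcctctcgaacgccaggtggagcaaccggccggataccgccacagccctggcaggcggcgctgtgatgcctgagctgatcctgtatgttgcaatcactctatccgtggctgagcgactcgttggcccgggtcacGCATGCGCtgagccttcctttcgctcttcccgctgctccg
ATP5F1A: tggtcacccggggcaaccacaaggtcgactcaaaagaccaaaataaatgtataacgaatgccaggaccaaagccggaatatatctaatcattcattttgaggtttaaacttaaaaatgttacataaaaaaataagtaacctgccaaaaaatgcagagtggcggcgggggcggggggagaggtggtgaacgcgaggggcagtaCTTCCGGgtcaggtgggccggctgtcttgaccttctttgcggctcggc

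Whether the lines responded differently was tested as the WPMY-1 response minus the BPH-1 response. Of the 75 members 0 were called, against 0.0089% of all genes, and 0 had an unadjusted p under 0.05, against 4.36% of all genes on the higher and 3.69% on the lower side, with a lowest adjusted p of 0.595. For UQCRC2 the responses differed by -0.24 (95% interval -0.49 to 0.017), for ATP5F1B by -0.21 (-0.46 to 0.036) and for NDUFA9 by -0.26 (-0.53 to 0.013). The lower values in WPMY-1 were therefore not shown to differ from those in BPH-1. Because the 2 RWF comparisons and this one share arrays, their values are given side by side only.

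Without extract, the lines differed in the level of single subunits in both directions. Comparing WPMY-1 vehicle with BPH-1 vehicle, 11 of 75 members were higher and 12 lower by limma at an adjusted p under 0.05, which is 14.7% and 16% of the members against 12.5% and 12.7% of all genes, so that the share of subunits was near that of all genes. The methods' t-test called 0 after adjustment and gave 25 at an unadjusted p under 0.05 (33.3%, against 25.7% of all genes).

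Complex V had the largest differences between the lines. ATP5MG, the membrane subunit g, read 7.21 and 7.08 in BPH-1 against 6.10 and 5.89 in WPMY-1, which was 2.23-fold lower (-1.16, -1.37 to -0.94, adjusted p = 6.5e-05). ATP5MGL, a near copy of it whose signal may share probes, read 6.90 and 6.78 in BPH-1 against 6.09 and 5.50 in WPMY-1 (-1.04, adjusted p = 0.003). ATP5MC1 was lower by 0.66 and ATP5F1D by 0.54 on the log2 scale. ATP5MJ, a small membrane subunit, was higher. It read 7.59 and 7.57 in BPH-1 against 8.18 and 8.40 in WPMY-1, 1.64-fold higher (0.71, 0.51 to 0.92, adjusted p = 0.00085). ATP5IF1 was also higher in WPMY-1 (0.46, adjusted p = 0.005), and among the c ring genes ATP5MC2 was higher (0.41, adjusted p = 0.015) where ATP5MC1 was lower.

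In complex I, 6 of 31 members were called higher and 2 lower in WPMY-1. Of all genes, 12.5% were called higher and 12.7% lower, and the same shares apply to the complexes below. NDUFS6 and NDUFS4 are accessory subunits of the same N module and went opposite ways. NDUFS6 read 7.14 and 7.08 in BPH-1 against 6.52 and 6.57 in WPMY-1 (-0.57, adjusted p = 0.0014), and NDUFS4 read 6.69 and 6.63 in BPH-1 against 7.32 and 7.21 in WPMY-1 (0.60, adjusted p = 0.0033). The membrane arm subunits NDUFB6 and NDUFB9 were higher by 0.67 and 0.56, NDUFB1 was lower by 0.38, and NDUFS3, a core subunit of the Q module, was higher by 0.52. In complex III, UQCR10 was the only call among 8 members, higher by 0.56. In complex IV, 4 of 15 members were called lower and 0 higher. These were COX4I1 (-0.35), COX7A2 (-0.35), COX6C (-0.30) and COX6B1 (-0.28), each with both WPMY-1 arrays below both BPH-1 arrays. Among the 12 with the largest differences, leaving out 1 array ended the call of NDUFS3 without BPH-1 vehicle replicate 2, of NDUFB1 without either BPH-1 vehicle array, and of ATP5F1D without either BPH-1 vehicle array or WPMY-1 vehicle replicate 1, with adjusted p of at most 0.061.

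**Figure D3:**
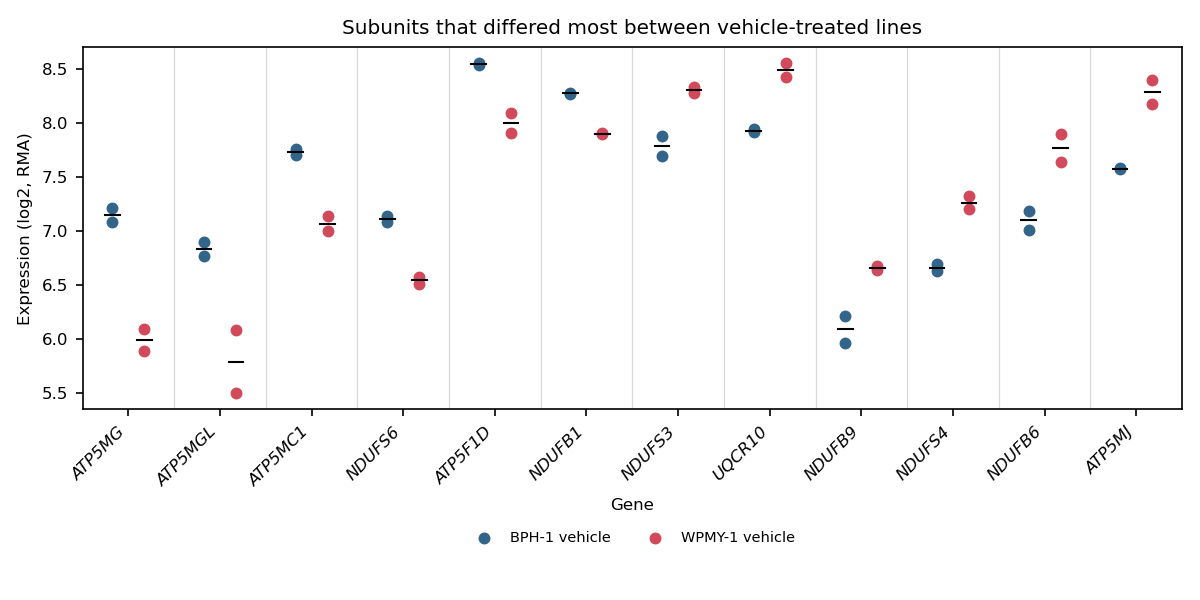
Expression (log2) of the 12 subunits with the largest called differences between the lines, in the 2 vehicle arrays of BPH-1 (blue) and of WPMY-1 (red), with short bars at the group means. The arrays of the lines do not overlap for any of the 12, and ATP5MG has the largest gap.

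Some genes that build or feed the chain passed the test in WPMY-1, though each call was lost in some of the alternative fits described below. The margin to the subunits was narrow, as their lowest adjusted p by limma there was 0.054. Of 48 assembly factors measured, which are proteins that help to put the complexes together without being part of them, 5 fell and 0 rose in WPMY-1 under RWF extract, where 1.1% of all genes were called lower and 0.89% higher, and 0 were called in BPH-1 (lowest adjusted p 0.308). At an unadjusted p under 0.05, 17 were lower and 3 higher in WPMY-1 (9.84% and 11.9% of all genes) and 5 lower in BPH-1 (2.81% of all genes). Their median was -0.135 in WPMY-1 and -0.041 in BPH-1. BCS1L and LYRM7 both act on the insertion of the Rieske iron-sulphur protein into complex III. BCS1L read 7.04 and 7.16 in WPMY-1 vehicle and 6.65 and 6.51 in RWF extract, so that it fell by 0.52 (adjusted p = 0.036). LYRM7 read 7.41 and 7.35 in vehicle and 6.79 and 6.95 in RWF extract and fell by 0.51 (adjusted p = 0.040).

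The other 3 serve complex IV. COX20 and SCO1 act on its mitochondrially made subunit COX2, SCO1 as a copper carrier, and COA7 is needed for its assembly. COX20 read 7.54 and 7.38 in WPMY-1 vehicle and 6.80 and 6.99 in RWF extract and fell by 0.56 (adjusted p = 0.042). SCO1 read 8.40 and 8.48 in vehicle and 7.99 and 8.00 in RWF extract and fell by 0.44 (adjusted p = 0.034). COA7 fell by 0.56 (adjusted p = 0.049). Of the 19 measured assembly factors of complex IV these were the 3 called. The 19 factors lay to both sides of 0 in WPMY-1, with 12 below, 7 above and a median of -0.060. At an unadjusted limma p under 0.05, 7 were lower and 3 higher, against 9.84% and 11.9% of all genes. Of the 15 complex IV subunits 0 were lower and 1 higher at that limit. In BPH-1 the 5 factors differed by -0.35 (BCS1L), -0.11 (LYRM7), -0.22 (COX20), -0.34 (SCO1) and -0.036 (COA7). The difference between the lines did not pass for any of them (lowest adjusted p 0.438).

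Of 11 genes for coenzyme Q synthesis and the mobile carriers, 1 fell in WPMY-1, beside the 1.1% of all genes called lower, and 0 rose. This was PDSS1, which makes the tail of coenzyme Q, at 7.52 and 7.60 in vehicle and 6.86 and 6.98 in RWF extract (-0.64, adjusted p = 0.033), and at -0.43 in BPH-1 (adjusted p = 0.428). Of 11 tricarboxylic acid cycle genes 1 fell, DLD, the shared dihydrolipoamide dehydrogenase, at 8.83 and 8.68 in vehicle and 7.99 and 8.20 in RWF extract (-0.66, adjusted p = 0.033). CS, citrate synthase, singled out after its value was seen, differed by -0.44 (adjusted p = 0.052). Of 11 membrane and import genes 1 fell, TOMM20, an import receptor of the outer membrane. It read 8.72 and 8.60 in vehicle and 7.88 and 7.91 in RWF extract, 1.70-fold lower (-0.77, -0.9997 to -0.54, adjusted p = 0.014).

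Of 10 measured regulators of respiratory genes 0 were called in either line, against 0.0223% of all genes in BPH-1 and 1.99% in WPMY-1. At an unadjusted limma p under 0.05 in WPMY-1, 2 were lower and 2 higher, against 9.84% and 11.9% of all genes. GABPB1, the partner subunit of GABP, also singled out after its value was seen, differed by -0.45 in WPMY-1 (adjusted p = 0.059) and by 0.055 in BPH-1. With 1 array left out, the 5 assembly factors were called in 0 of 8 fits (adjusted p from 0.052 to 0.181), PDSS1 in 2 (0.031 to 0.159), DLD in 3 (0.047 to 0.156) and TOMM20 in 5 (0.023 to 0.092). Over 9 other ways of processing COA7 was called in 5, LYRM7, COX20, SCO1 and PDSS1 in 6, BCS1L and DLD in 7 and TOMM20 in 8. The calls were lost with the methods' t-test for all 8, with WPMY-1 alone for all but TOMM20, with quantile normalization for COA7, LYRM7, COX20, SCO1 and PDSS1, and with the mean of clusters for COA7. All 8 genes kept a negative difference in the fits with 1 array left out, and the 3 that lost TOMM20 were those without WPMY-1 vehicle replicate 1 or either WPMY-1 RWF array.

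**Figure D4:**
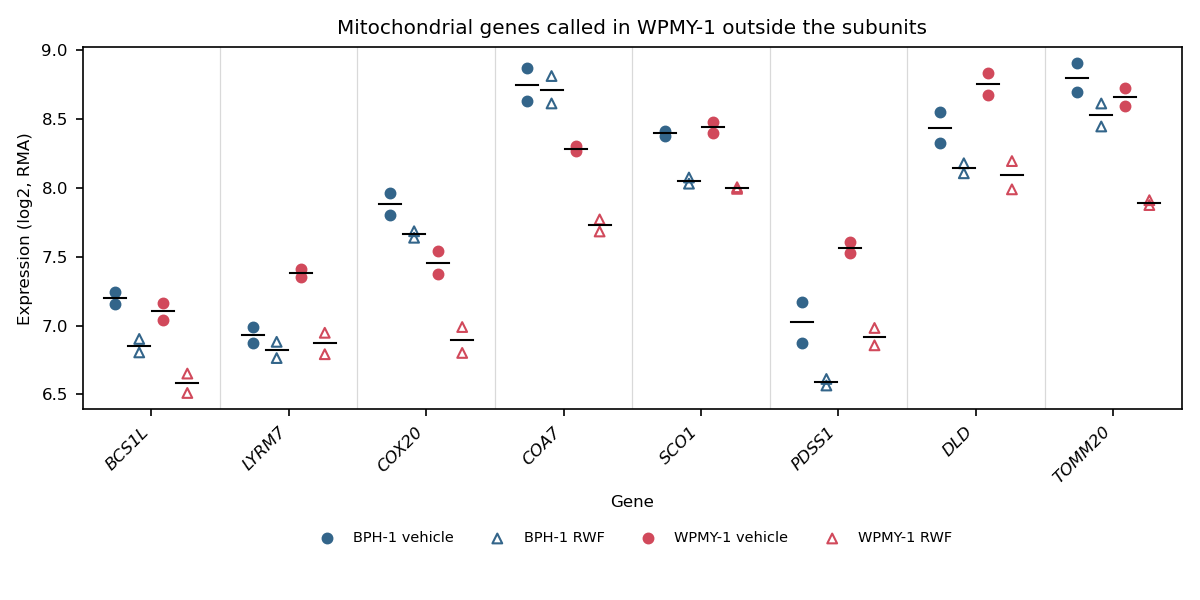
Expression (log2) of the 8 genes outside the subunits that fell in WPMY-1, in all 8 arrays (filled circles vehicle, open triangles RWF extract, blue BPH-1, red WPMY-1, short bars group means). In WPMY-1 both RWF arrays lie below both vehicle arrays for each gene, and TOMM20 has the largest gap.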

How the data were processed

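Total RNA of 2 arrays in each of 4 groups was measured, and the authors deposited 1 log2 value per transcript cluster and array, made with RMA (robust multi-array average) per the submitters' processing notes. The version and genome build were not given in the sources used here. RMA sets the arrays to a common distribution, so the values carry no total signal. Array medians were 4.50 to 4.58, and arrays of a group correlated at r = 0.995 to 0.997.

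The values were used as deposited. All 8 arrays were fitted as 4 groups in limma 3.58.1 (R 4.3.3, lmFit and eBayes, 4 residual and 4.34 prior degrees of freedom), with Benjamini-Hochberg adjustment over 67528 clusters and a threshold of 0.05. The code was tested on simulated data. Clusters were named from the platform annotation, where 23781 had 1 symbol, 1543 several and 42204 none, and a gene with several clusters was read from the brightest. Tables and plots used pandas 2.3.3 and matplotlib 3.10.9.

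The members, gene lists and tests were chosen with earlier results of these data known. Named were the highest and lowest member of each complex in each line and the 6 largest calls in each direction between lines. Also named were the isoforms and their partners that were among the members, and up to 3 calls per direction in the other lists. The alternatives left out each array in turn, dropped dim clusters, took 1 cluster or the mean of clusters per gene, rescaled by quantile normalization or by median centring, added a replicate block, used trended robust variances, fitted the lines separately, and ran the methods' t-test.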

Additional observations from a re-analysis of the deposited data

Results flagged for a closer look

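In 2 subunits the RWF arrays lay wholly on opposite sides of vehicle in the lines. NDUFA7, an accessory subunit of the N module of complex I, differed by -0.059 in BPH-1 but by 0.094 in WPMY-1. In BPH-1 its higher RWF array, at 8.19662, was barely under its lower vehicle array, at 8.19664. COX7B2, a dim restricted form of complex IV, differed by -0.089 in BPH-1 but by 0.084 in WPMY-1. The difference between the lines did not pass limma's interaction test for either (adjusted p = 0.728 and 0.699).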

How the results depend on the processing

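In WPMY-1 the count of members called rose from 0 to 2 with median centring, with dim clusters left out and with trended robust variances (UQCRC2 and ATP5F1B in each), and to 3 with 1 cluster per gene (with ATP5MC2 added). Calls over all genes changed as well. Of 22465 genes, 138 were higher and 350 lower with median centring, and 211 and 266 with trended robust variances. With 1 cluster per gene the counts were 599 and 751 of 22465, and with dim clusters left out 389 and 528 of 15888. As deposited they were 200 and 248 of 22465. The fits with dim clusters left out and with 1 cluster per gene adjusted over fewer features and also gave other standard errors. The count was 0 with quantile normalization, the mean of clusters, the replicate block, WPMY-1 alone and the methods' t-test. BPH-1 had 0 under all alternatives. The 23 calls between vehicle lines became 0 with the methods' t-test and 11 to 18 with 1 array left out. The replicate numbers did not pair the arrays (correlation of deviations 0.125 in BPH-1, -0.026 in WPMY-1 and 0.270 between the vehicle groups of the lines, with -0.105 as the lowest of the 6 pairs of groups), and with the replicate block the members called were 0 in each RWF comparison and 22 between lines.

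The median over all members in WPMY-1 was -0.030 after quantile normalization and -0.131 after median centring. That of complex I was 0.016 and -0.085, of complex V -0.191 and -0.265, and of the difference between responses 0.020 and -0.086. Median centring also gave -0.046 for complex IV in WPMY-1 and 0.069 for all members between lines. With 1 array left out, the median over all members in BPH-1 ran from -0.086 to -0.043 and that of the difference between responses from -0.050 to 0.0018. For BPH-1, complex I ran from -0.061 to -0.041, complex II from -0.065 to -0.018, complex IV from -0.034 to 0.019 and complex V from -0.155 to -0.080. For WPMY-1, complex I ran from -0.046 to 0.031 and complex V from -0.228 to -0.203.

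Genes near 0 changed sign in WPMY-1, none of them called. With median centring NDUFC1 was -0.0074, SDHC -0.0079, UQCRQ -0.00052, COX8C -0.046, ATP5PF -0.012, COX6A2 -0.053 and COX7A2L -0.022, and with quantile normalization COX6A2 was -0.035 and ATP5IF1 0.044. With 1 array left out, in WPMY-1 ATP5IF1 ran from -0.066 to 0.022, COX6A2 from -0.075 to 0.080, COX7A2 from -0.018 to 0.256, COX7A2L from -0.029 to 0.096, COX8C from -0.137 to 0.156, NDUFC1 from -0.042 to 0.138, UQCR11 from -0.144 to 0.087 and UQCRQ from -0.042 to 0.152. In BPH-1 ATP5IF1 ran from -0.099 to 0.011, ATP5PD from -0.017 to 0.066, ATP5PF from -0.0059 to 0.070, COA7 from -0.158 to 0.085, COX4I1 from -0.037 to 0.042, COX5A from -0.049 to 0.028, COX7A1 from -0.022 to 0.161, COX8A from -0.119 to 0.100, GABPB1 from -0.012 to 0.123, NDUFA2 from -0.058 to 0.095 and NDUFA9 from -0.053 to 0.019. The cause of these changes was not tested. The number of arrays limits the precision, and dim genes such as COX7B2 and COX8C are limited by their signal.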
